A study of Mus musculus with 12 samples.

Results

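The genes described here are 33 mouse imprinted genes, that is, genes of which the copy inherited from one parent is kept silent by an epigenetic mark. They were taken as a list of symbols, chosen with earlier results of these data known. All 33 were found among the 54232 genes of the count files. RNA was sequenced in 12 libraries of MMTV-NIC breast cancer cells, mouse mammary tumour cells in which the mouse mammary tumour virus promoter drives activated Neu (Erbb2) and Cre recombinase. The 4 groups of 3 libraries were AXL WT cells and AXL KO cells, which lack the receptor tyrosine kinase AXL, each held in 21% oxygen (normoxia) or 1% oxygen (hypoxia). Group and replicate number follow the sample titles, since in 6 samples the genotype tag contradicts the title. The oxygen level follows the titles and the treatment tag, which match, whereas the treatment protocol reads 1% for every sample, those titled normoxia included. The labels give neither the number of knockout clones, nor the time in hypoxia, nor whether replicates were separate cultures, and a p-value here can speak only of how these libraries scatter, which may be technical scatter.

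Many imprinted genes lie in clusters, each governed by a control region that is DNA methylated on the maternal or the paternal copy from the germ line onward. A methylated control region can stop a long non-coding RNA such as Airn or Kcnq1ot1 from being made, or stop the insulator protein CTCF from binding, as between Igf2 and H19, and so sets which parental copy of the neighbouring genes is read. Many of the genes act on fetal and placental growth, those read from the paternal copy tending to promote it (Igf2, Plagl1, Rtl1) and several of those read from the maternal copy tending to restrain it (Grb10, Phlda2, Igf2r). Loss of the expressed copy leaves no RNA, and release of the silent copy raises it, but the files hold no allele information, so no value here says which copy was read.

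Libraries held 45297267 to 58775422 counts. Levels are CPM, counts scaled to a common library size adjusted by TMM. Axl lay between 455 and 1000 CPM in the 6 AXL WT libraries and between 1.72 and 3.47 CPM in the 6 AXL KO libraries. The 3 AXL WT hypoxia libraries differed among themselves far more than the other groups, with a biological coefficient of variation of 0.402 against 0.0585 to 0.0895, and Erbb2 at 2410, 131 and 360 CPM in them. Of 6 epithelial markers 5 (Erbb2, Epcam, Krt8, Krt18, Cdh1) were at 1 CPM or more throughout a group, and Krt19 stayed at 0.305 CPM or lower in every library. Of 7 leukocyte markers Ptprc, Cd3e, Itgam and Tyrobp never reached 0.1 CPM, while the summed level of the 7 ran from 10.9 to 12.3 CPM in AXL WT normoxia, 15.2 to 152 in AXL WT hypoxia, 59.7 to 85.3 with AXL KO in normoxia and 49.4 to 55.9 with AXL KO in hypoxia. A single gene carried most of each sum, Csf1r (5.41, 145 and 41.1 CPM) in 2 of the 3 AXL WT hypoxia libraries and Cd68 elsewhere (48.9 to 85.2 CPM in AXL KO). Of 7 fibroblast markers Lum, Dpt and Thy1 never reached 0.1 CPM, and the 7 summed to 66.1 to 72.6, 72.1 to 96.2, 186 to 201 and 58.7 to 65.4 CPM in the same order of groups. The other 4 (Pdgfra, Pdgfrb, Dcn, Col1a1) were at 1 CPM or more throughout a group and did not move together. Group means in that order were 51.5, 56.4, 38.3 and 9.38 CPM for Pdgfra and 15.6, 13.9, 122 and 9.27 for Pdgfrb. They were 0.299, 0.732, 11.7 and 3.12 CPM for Dcn and 0.838, 16.0, 20.2 and 40.6 for Col1a1. Of 6 endothelial markers Tek and Cldn5 never reached 0.1 CPM, and the sums, mostly Kdr in AXL KO, were 0.354 to 0.617, 0.751 to 1.85, 3.14 to 4.35 and 15.7 to 17.5 CPM. Of 5 adipocyte markers 4 (Adipoq, Plin1, Lep and Cidec) never reached 0.1 CPM, and Fabp4 made up nearly all of the sums of 33.8 to 41.8, 8.55 to 27.9, 8.65 to 13.6 and 4.6 to 4.61 CPM. The 5 muscle markers, of which Myod1, Myog and Pax7 never reached 0.1 CPM, summed to 0.614 CPM or less. The part of these differences in the results below was not tested. In a bulk sample, fewer cells with a transcript and less of it per cell cannot be told apart.

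**Figure D1:**
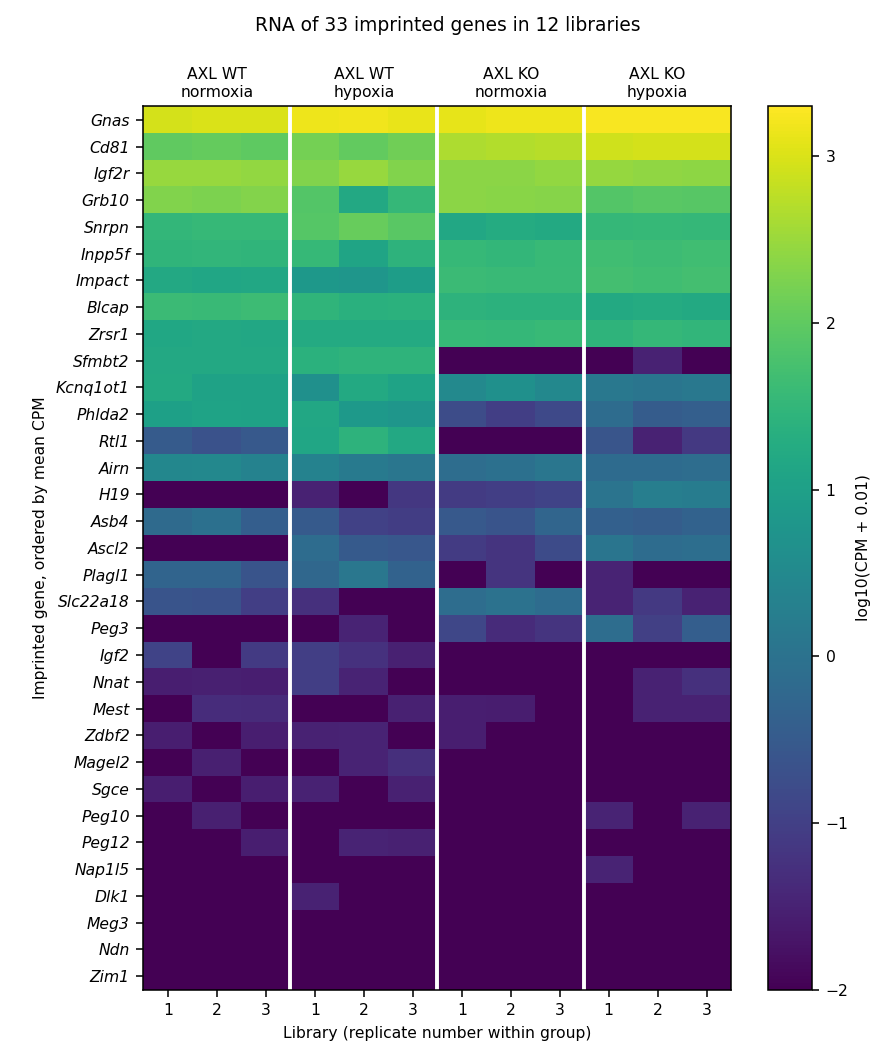
Level of each of the 33 imprinted genes (rows, ordered by mean CPM) in each of the 12 libraries (columns, by group and replicate number), as log10(CPM + 0.01) by colour. The upper 9 rows are bright in all libraries, the lowest 12 are dark in all, and between them Sfmbt2, Phlda2, Rtl1, H19 and Plagl1 change colour with genotype.

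The list divided by level into genes on in every library, genes off in every library and genes in between. Of the 33 genes, 10 were at 1 CPM or more in all 12 libraries: Igf2r, Grb10, Snrpn, Zrsr1, Gnas, Kcnq1ot1, Impact, Blcap, Inpp5f and Cd81. Another 12 stayed under 0.1 CPM in all 12 libraries: Meg3, Dlk1, Mest, Peg10, Sgce, Ndn, Nnat, Peg12, Magel2, Zim1, Zdbf2 and Nap1l5. Meg3, Ndn and Zim1 had no count in any library, where 3 counts, the limit that a count of 0 allows, are worth 0.0517 to 0.0728 CPM per library, for counting error only. The other 11 genes, among them H19, Igf2, Sfmbt2, Phlda2, Rtl1 and Plagl1, met neither limit, with a highest value of 28.4 CPM. Among them Igf2, Peg3, Slc22a18 and Asb4 never reached 1 CPM, and Airn never fell below 0.703 CPM. Per kb of annotated exon, which allows genes to be compared with each other, Gnas was at 86.4 CPM per kb and Cd81 at 35.4 in AXL WT normoxia, and Cd81 at 304 and Gnas at 161 in AXL KO hypoxia, so that the order of the 2 most abundant members differed between those groups. A filter on low counts left 19 of the 33 genes for testing. The 14 that failed it (Igf2, Peg3 and the 12 genes under 0.1 CPM) are given by their counts only.

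Genotype was compared within each oxygen level with edgeR's quasi-likelihood test and Benjamini-Hochberg adjustment over all 16767 genes tested, and a gene was called at an adjusted p under 0.05. In hypoxia 7 of the 19 tested members were higher in AXL KO, 8 were lower and 4 were not called, so 78.9% were called where 63.0% of all genes tested were (29.9% higher and 33% lower). In normoxia the counts were again 7, 8 and 4, beside 59.7% of all genes (29.7% higher and 30% lower). A member that passed the filter only because 1 group was high had to differ, so these shares are a description. The fit shares the spread over the 4 groups, so the uneven AXL WT hypoxia libraries also enter the normoxia test. Fitted on the compared libraries alone, 79.5% of 15866 genes tested were called in normoxia and 50.6% of 15216 in hypoxia. A member not called in normoxia is therefore not shown to be equal between genotypes. The median log2 difference of the 19 was 0.30 in hypoxia and -0.22 in normoxia (all genes: -0.041 and -0.03), with members on both sides of 0.

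Few of these differences were all-or-none, the pattern that silencing or activation of a gene in a whole clone would leave. A gene was counted as all-or-none where 1 genotype averaged under 0.1 CPM and every library of the other was at 1 CPM or more. In hypoxia 15 members were at 1 CPM or more in every library of 1 genotype, and 2 of them were all-or-none: Sfmbt2, near 0 in AXL KO, and H19, near 0 in AXL WT. Of the 12436 genes of the series that met the same condition, 383 (3.08%) were all-or-none, 1.83% higher and 1.25% lower in AXL KO. In normoxia Sfmbt2 was the 1 such gene among 13 members, beside 489 of 12707 genes (3.85%, with 2.15% higher and 1.7% lower in AXL KO). With 2 genes and 1 gene the members' shares of 13.3% and 7.69% rest on too few to be set against the background. Just inside the limits was H19 in hypoxia, whose lowest AXL KO library had 1.09 CPM. Just outside were Rtl1 in hypoxia, whose AXL KO libraries averaged 0.11 CPM, and Phlda2 in normoxia, whose AXL KO libraries averaged 0.129 CPM. With an upper limit of 0.5 CPM instead of 0.1, which can only add genes, Rtl1 and Phlda2 counted as well in hypoxia, and Phlda2 in normoxia. The share of all genes under that limit is not given here, so this is a description. Without AXL KO hypoxia replicate 1, Rtl1 was all-or-none as well in hypoxia. Scaling by library size alone put Rtl1 in the place of H19.

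**Figure D2:**
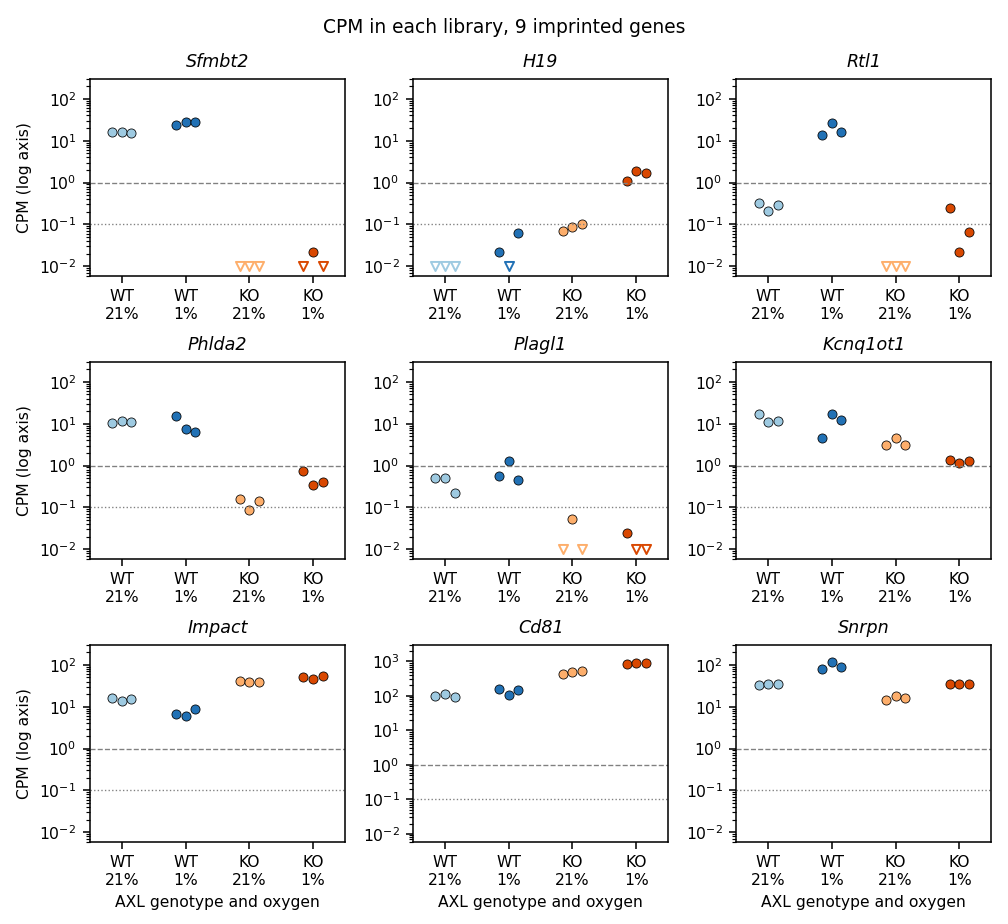
CPM (log axis) of 9 imprinted genes in each of the 12 libraries, by AXL genotype and oxygen level. Points are libraries, open triangles at 0.01 are libraries with no count, and the dotted and dashed lines mark 0.1 and 1 CPM. Sfmbt2 crosses both lines between genotypes at both oxygen levels, H19 in hypoxia, whereas Kcnq1ot1, Impact, Cd81 and Snrpn stay above 1 CPM in every library.

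Sfmbt2 encodes a polycomb-group protein that is read from the paternal copy and is needed for the placental trophoblast. The gene (ENSMUSG00000061186) spans chr2:10370510-10595253 on the plus strand of GRCm38. It had 15.9, 15.9 and 15.6 CPM in the AXL WT normoxia libraries and 23.8, 28.4 and 28.1 CPM in AXL WT hypoxia. In AXL KO it had no count in any normoxia library and 1 count, in replicate 2, over the 3 hypoxia libraries. The genotypes did not overlap at either oxygen level. In normoxia AXL KO was at least 903-fold lower, taking 3 counts over the group as the limit for 0 (edgeR adjusted p = 4.82e-09). In hypoxia the ratio of AXL WT to AXL KO was 3520 with a 95% counting interval of 631 to 139000 (edgeR adjusted p = 4.52e-09). RefSeq (GRCm38.p6) lists 2 start regions for the gene. The 250 bases before each start are shown because Sfmbt2 is the member with the clearest all-or-none difference. Control of imprinting acts on CpG sites at many imprinted genes, and whether it does so at Sfmbt2 was not examined. Neither window overlaps an annotated exon. Capitals mark each CG, and the plus strand is printed 5′ to 3′, first chr2:10370201-10370450 and then chr2:10372186-10372435.
Sfmbt2 start 1: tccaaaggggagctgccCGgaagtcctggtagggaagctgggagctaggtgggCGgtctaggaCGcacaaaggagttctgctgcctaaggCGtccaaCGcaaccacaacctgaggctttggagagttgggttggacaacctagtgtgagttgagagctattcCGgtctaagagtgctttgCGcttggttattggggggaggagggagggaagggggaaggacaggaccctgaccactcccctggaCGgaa
Sfmbt2 start 2: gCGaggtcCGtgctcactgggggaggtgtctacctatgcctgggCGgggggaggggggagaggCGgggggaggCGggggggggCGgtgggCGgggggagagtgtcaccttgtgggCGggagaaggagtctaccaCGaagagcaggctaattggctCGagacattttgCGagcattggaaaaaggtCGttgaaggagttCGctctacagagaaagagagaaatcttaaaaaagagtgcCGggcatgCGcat
The first window holds 8 CG and the second 15, where the median of 32851 promoter windows of 250 bases is 6. At least 8 were found in 43.0% of all windows and at least 15 in 27.3%. Neither holds TGCCGC, the hexamer bound by ZFP57 when methylated, which was searched on both strands and lies in 8.68% of all windows and in 7 of the 44 windows of the 28 members that have one. No methylation was measured.

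The region around Sfmbt2 held 1 further all-or-none gene and others that went the opposite way. Of 10 tested genes within 500 kb of it, 5 were higher in AXL KO in hypoxia, 1 was lower and 4 were not called. In normoxia 5 were higher, 2 were lower and 3 were not called. With 6 and 7 of 10 called, where 63.0% and 59.7% of all genes were, these counts lay near the background. Gm13264, the nearest tested gene on one side at 442 kb, was all-or-none in the same direction as Sfmbt2: it had 8.37, 7.7 and 8.36 CPM in AXL WT normoxia, 4.75, 3.37 and 4.36 in AXL WT hypoxia and no count in any AXL KO library. That made AXL KO at least 466-fold lower in normoxia (edgeR adjusted p = 2.05e-07) and at least 183-fold lower in hypoxia (6.51e-07). Across the series, 3.85% of genes that could show it were all-or-none in normoxia and 3.08% in hypoxia. Itih5, the nearest on the other side at 114 kb, went the opposite way, at 0.966 to 1.73 CPM in AXL KO normoxia and 0.0372 to 0.159 in AXL WT normoxia. Its log2 difference was 3.71 ± 0.48 (SE) in normoxia (edgeR adjusted p = 3.57e-05) and 3.77 ± 0.64 in hypoxia (0.000329). Itih2, also within 500 kb on that side, was higher in AXL KO as well. It averaged 334 CPM in AXL KO normoxia and 3.74 in AXL WT normoxia (6.48 ± 0.35, edgeR adjusted p = 2.45e-08). The hypoxia difference of Itih2 was 7.40 ± 0.37 (edgeR adjusted p = 1.65e-08).

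On distal chromosome 7 the members H19, Igf2, Ascl2, Cd81, Kcnq1ot1, Slc22a18 and Phlda2 lie within about a megabase, in 2 imprinted clusters under separate control regions, and they did not move together. H19, Cd81 and, in normoxia, Ascl2 and Slc22a18 were higher in AXL KO, whereas Phlda2 and Kcnq1ot1 were lower at both oxygen levels.

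H19 is a long non-coding RNA read from the maternal copy, and its gene spans chr7:142575529-142578143 on the minus strand. In hypoxia it had 1.09, 1.88 and 1.65 CPM in AXL KO and 0.0221, 0 and 0.0623 CPM in AXL WT. The groups did not overlap, and the ratio of the summed counts was 52.8 (log2 difference 5.61 ± 0.56, edgeR adjusted p = 1.76e-05). In normoxia it had 0.0715, 0.0862 and 0.104 CPM in AXL KO and no count in AXL WT, at least 4.89-fold higher in AXL KO (edgeR adjusted p = 0.00248). The level was low in all groups, the highest being 0.626 CPM per kb in AXL KO hypoxia. Igf2, the growth factor that shares its enhancers with H19 and is read from the paternal copy, went the other way at counts too low to test: 10 counts over AXL WT normoxia, 7 over AXL WT hypoxia and none over either AXL KO group. These are lower bounds of 3.41-fold and 2.25-fold. Of the annotated exon bases of Igf2, 62.8% are shared on the same strand with the transcript Gm49394, and fragments that fall in both genes were not assigned to either, so the count understates Igf2. Gm49394 itself had 0.335 to 0.68 CPM in the 6 AXL WT libraries and no count in the 6 AXL KO libraries. That placed AXL KO at least 22.2-fold lower in normoxia and 27.0-fold lower in hypoxia (edgeR adjusted p = 2.65e-05 and 2.12e-05). The nearest tested gene on the other side of H19, Mrpl23, a mitochondrial ribosomal protein gene 34.8 kb away, was higher in AXL KO in hypoxia (1.11 ± 0.23, edgeR adjusted p = 0.00141) and not called in normoxia (0.35 ± 0.22, 0.195).

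Phlda2, a pleckstrin-domain gene read from the maternal copy that restrains placental growth, spans chr7:143501545-143503150 on the minus strand. It had 10.5, 11.6 and 11.1 CPM in AXL WT normoxia and 0.161, 0.0862 and 0.139 CPM in AXL KO normoxia. In hypoxia the AXL WT libraries had 15.3, 7.31 and 6.17 CPM and the AXL KO libraries 0.752, 0.336 and 0.396 CPM. The genotypes did not overlap at either oxygen level, and every AXL KO library held counts, 22 over normoxia and 64 over hypoxia. The log2 difference was -6.40 ± 0.46 in normoxia and -4.28 ± 0.40 in hypoxia (edgeR adjusted p = 2.71e-07 and 3.06e-06). Of 17 tested genes within 500 kb, 3 were higher and 7 lower in AXL KO in hypoxia, and 6 were higher and 8 lower in normoxia, beside 63.0% and 59.7% of all genes called. Slc22a18, a transporter gene only 2.21 kb away and also read from the maternal copy, moved against Phlda2 in normoxia: it had 0.768, 0.966 and 0.746 CPM in AXL KO and 0.229, 0.205 and 0.0873 CPM in AXL WT (2.24 ± 0.46, edgeR adjusted p = 0.00123). In hypoxia it had 5 and 2 counts per group and was not called. Nap1l4, the neighbour on the other side at 10.4 kb, was lower in AXL KO in hypoxia by a smaller amount (-0.60 ± 0.10, edgeR adjusted p = 0.00027) and was not called in normoxia (-0.10 ± 0.10, 0.414).

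Kcnq1ot1, the non-coding RNA read from the paternal copy that silences its cluster in cis, was lower in AXL KO without being lost. It had 16.6, 11.1 and 11.5 CPM in AXL WT normoxia and 3.07, 4.48 and 3.03 CPM in AXL KO normoxia. In hypoxia the AXL WT libraries had 4.48, 16.8 and 12 CPM and the AXL KO libraries 1.33, 1.16 and 1.32. The genotypes did not overlap at either oxygen level (normoxia -1.89 ± 0.38, edgeR adjusted p = 0.00107, hypoxia -3.12 ± 0.41, 4.87e-05). With AXL WT hypoxia replicates 2 and 3 left out, the hypoxia difference was -1.82. Kcnq1, the potassium channel gene that contains it, was too low to test, at 0.298 CPM or less in every library.

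Cd81, which encodes a tetraspanin of the cell surface and is imprinted in placenta, showed a large difference between 2 active states. It had 99.2, 112 and 94.5 CPM in AXL WT normoxia and 442, 492 and 537 CPM in AXL KO normoxia. With 1% oxygen it had 154, 106 and 144 CPM in AXL WT and 815, 920 and 890 CPM in AXL KO. All AXL KO libraries were above all AXL WT libraries (normoxia 2.26 ± 0.14, edgeR adjusted p = 9.25e-08, hypoxia 2.70 ± 0.15, 2.88e-08). Ascl2, a transcription factor of trophoblast and intestinal stem cells read from the maternal copy, had no count in AXL WT normoxia and 0.0715, 0.0517 and 0.156 CPM in AXL KO normoxia. That was at least 5.21-fold higher, on 16 counts (edgeR adjusted p = 0.00429). In hypoxia it was present in both genotypes, at 0.729, 0.305 and 0.27 CPM in AXL WT and 1.16, 0.739 and 0.814 in AXL KO, and was not called (1.05 ± 0.46, 0.0668). Tspan32os, an antisense transcript 19.7 kb from Ascl2, had a like pattern: it was higher in AXL KO in normoxia (4.19 ± 0.68, edgeR adjusted p = 0.00022) and not called in hypoxia (0.69 ± 0.50, 0.245). Igf2os, the nearest tested gene on the other side at 296 kb, had 47 counts in AXL WT normoxia and none in AXL KO normoxia, at least 16.0-fold lower (edgeR adjusted p = 0.00122). In hypoxia Igf2os had 5 counts against none and was not called (edgeR adjusted p = 0.0817).

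**Figure D3:**
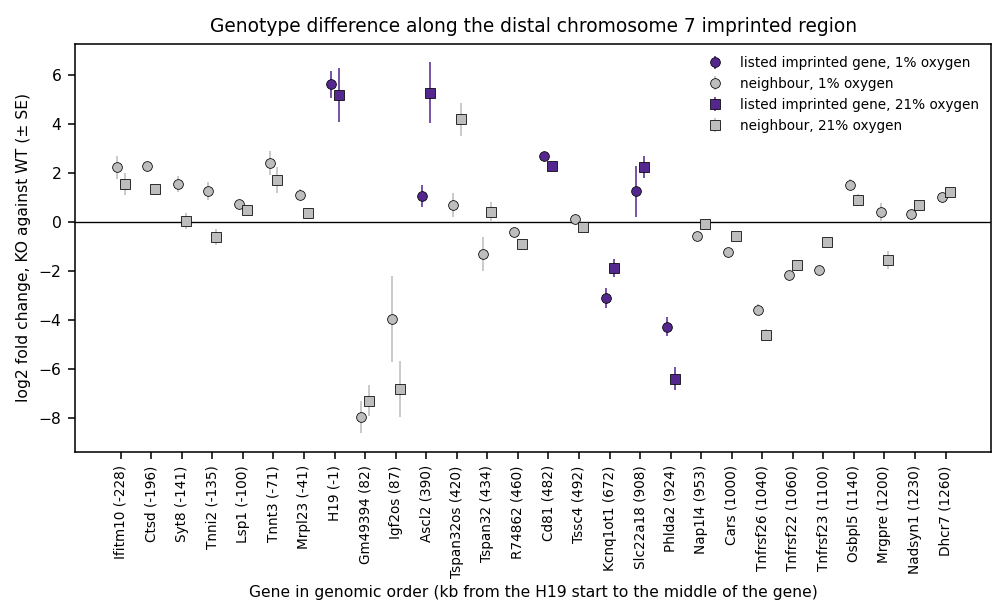
Fitted log2 difference between AXL KO and AXL WT (± SE) for tested genes of the distal chromosome 7 imprinted region, in genomic order with the distance in kb from the H19 start. Circles are 1% oxygen, squares 21% oxygen, purple the listed imprinted genes and grey their neighbours. H19, Ascl2 and Cd81 lie above 0 and Kcnq1ot1 and Phlda2 below it. The fitted sizes for H19 and Ascl2 in 21% oxygen, Gm49394 and Igf2os involve a group with no counts and depend on the prior count.

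Rtl1, a gene of retrotransposon origin read from the paternal copy and needed for placental vessels, was far higher in hypoxia than in normoxia in AXL WT and near 0 in AXL KO. It spans chr12:109589193-109600330 on the minus strand. It had 0.317, 0.205 and 0.297 CPM in AXL WT normoxia and 13.6, 26.3 and 16.1 CPM in AXL WT hypoxia, a ratio of summed counts of 67.5 (6.08 ± 0.48, edgeR adjusted p = 4.48e-06). In AXL KO it had no count in normoxia and 0.243, 0.0224 and 0.066 CPM in hypoxia, at least 6.1-fold higher on 14 counts (edgeR adjusted p = 0.00984). No library of one oxygen level overlapped those of the other within either genotype. Between genotypes AXL KO was 173-fold lower in hypoxia by summed counts (-7.41 ± 0.55, edgeR adjusted p = 2.03e-06) and at least 15.7-fold lower in normoxia (0.000751). Without AXL KO hypoxia replicate 1, which held most of the AXL KO counts, the hypoxia difference was -8.63. The 2 responses to oxygen were not called as different between genotypes (-0.61 ± 1.04, edgeR adjusted p = 0.708).

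The other listed genes of the Rtl1 cluster had few counts or none and did not pass the filter for testing. Dlk1, a membrane growth regulator read from the paternal copy, had 1 count over all 12 libraries. Meg3, the maternal non-coding RNA of the cluster, had none, and neither had Dio3, the thyroid hormone deiodinase at its far end. Rian, a maternal non-coding RNA downstream, had 1 count over AXL WT normoxia, 18 over AXL WT hypoxia, 2 over AXL KO normoxia and 4 over AXL KO hypoxia. Of the 18 counts 14 lay in AXL WT hypoxia replicate 2 (0.328 CPM), the library with the highest Rtl1. Mirg, a further maternal non-coding RNA there, had 2 counts over AXL WT normoxia, 6 over AXL WT hypoxia and none in AXL KO. Only 2 genes within 500 kb of Rtl1 were tested, and the nearer, Gm3379 at 294 kb, was not called between genotypes (hypoxia 0.55 ± 0.30, edgeR adjusted p = 0.125, normoxia 0.33 ± 0.29, 0.342). The maternal copy of the cluster makes microRNAs from the strand opposite Rtl1. RefSeq (GRCm38.p6) lists 6 hairpins and 11 mature microRNAs there, and each of the 11 has a full complement in the annotated Rtl1 transcript, through which such microRNAs are known to cut Rtl1 RNA. Their 11 seeds (bases 2 to 8) are all different. They were looked up after the Rtl1 values were seen, and 4 of them are shown to make the pairing with Rtl1 visible. Capitals mark the seed and, in the Rtl1 RNA given as DNA, the bases that pair with it. All are printed 5′ to 3′.
mmu-miR-127-3p: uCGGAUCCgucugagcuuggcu
Rtl1 site for mmu-miR-127-3p: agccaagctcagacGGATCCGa
mmu-miR-431-5p: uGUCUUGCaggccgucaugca
Rtl1 site for mmu-miR-431-5p: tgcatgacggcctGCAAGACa
mmu-miR-433-3p: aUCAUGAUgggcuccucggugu
Rtl1 site for mmu-miR-433-3p: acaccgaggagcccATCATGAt
mmu-miR-136-5p: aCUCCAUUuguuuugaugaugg
Rtl1 site for mmu-miR-136-5p: ccatcatcaaaacaAATGGAGt
The 6 hairpin genes had between 0 and 0.0703 CPM in every library. Their only counts (Mir136 4, Mir432 2 and Mir431 1) lay in AXL WT hypoxia, the group in which Rtl1 was high, and all but 1 of them in replicate 2. Mature microRNAs are not analysed here.

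Plagl1, a zinc-finger transcription factor read from the paternal copy that regulates other imprinted genes, was lower in AXL KO. It had 0.511, 0.502 and 0.227 CPM in AXL WT normoxia and 0.574, 1.27 and 0.457 CPM in AXL WT hypoxia. Over the 3 AXL KO libraries it had 3 counts in normoxia, all in replicate 2, and 1 count in hypoxia. No AXL KO library reached the lowest AXL WT library. The ratio of AXL WT to AXL KO was 23.5 (95% counting interval 7.72 to 117) in normoxia and 98.4 (17.3 to 3930) in hypoxia (edgeR adjusted p = 0.000863 and 0.000188). It lay under the 1 CPM limit for an all-or-none gene in most AXL WT libraries. Its nearest tested neighbours, Sf3b5 and Ltv1 within 51.3 kb, were not called in hypoxia, and Sf3b5 was lower in AXL KO in normoxia (-0.51 ± 0.13, edgeR adjusted p = 0.0039).

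Peg3, a zinc-finger gene read from the paternal copy that is often silenced in tumours, showed the reverse pattern below the level of the test. It had 0.776, 0.0896 and 0.374 CPM in AXL KO hypoxia and 0.125, 0.0345 and 0.052 CPM in AXL KO normoxia, against 1 count over the 6 AXL WT libraries. In hypoxia the ratio was 54.9 with a 95% counting interval of 9.44 to 2210, and in normoxia AXL KO was at least 3.91-fold higher. The AXL KO hypoxia libraries spanned 0.0896 to 0.776 CPM, so the size is uncertain beyond counting error. Zim1, its maternally read neighbour, had no count in any library.

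Grb10, an adaptor protein that restrains insulin and growth factor signalling, was among the more abundant members and moved with oxygen rather than steadily with genotype. It had 196, 181 and 208 CPM in AXL WT normoxia and 76.7, 15.9 and 34.3 CPM in AXL WT hypoxia. In AXL KO it had 235, 225 and 216 CPM in normoxia and 75.3, 86.0 and 85.4 CPM in hypoxia. Hypoxia was lower than normoxia in every library of both genotypes (AXL WT -2.20 ± 0.40, edgeR adjusted p = 0.000548, AXL KO -1.46 ± 0.39, 0.00697). Between genotypes it was called in hypoxia only narrowly (0.96 ± 0.39, edgeR adjusted p = 0.0467), and AXL WT hypoxia replicate 1 lay within the AXL KO range. Leaving out AXL WT hypoxia replicate 1 gave 1.72, leaving out replicates 2 and 3 gave 0.09 with an adjusted p of 0.437, and the call was lost under 17 alternatives with adjusted p between 0.0514 and 0.437. In normoxia it was not called in the fit of all libraries (0.21 ± 0.38, edgeR adjusted p = 0.651). Fitted on the normoxia libraries alone it was called slightly higher in AXL KO (0.2, edgeR adjusted p = 0.0142).

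The Prader-Willi region of chromosome 7 is a cluster read mainly from the paternal copy in brain. Of its imprinted genes looked up here 5 were tested, and only Snrpn is among the 33. All 5 were called lower in AXL KO in normoxia and 4 of them in hypoxia. Of all genes tested, 30% and 33% were called lower. Snhg14 and the normoxia values of Mkrn3, Ube3a and Atp10a were added after values were seen, so these counts are a description. Snrpn, a spliceosomal protein gene next to the control region, had 32.2, 35.0 and 34.9 CPM in AXL WT normoxia and 14.7, 17.8 and 16.5 CPM in AXL KO normoxia. Under hypoxia Snrpn had 78.6, 118 and 86.5 CPM in AXL WT and 34.6, 35.3 and 34.2 in AXL KO. Within each oxygen level the genotypes did not overlap, AXL KO being lower (normoxia -1.06 ± 0.14, edgeR adjusted p = 4.65e-05, hypoxia -1.44 ± 0.14, 4.66e-06). AXL KO in hypoxia, however, lay at the level of AXL WT in normoxia. Of the annotated exon bases of Snrpn, 27.3% are shared on the same strand with Snurf and Gm38393, so part of its fragments were not counted. Mkrn3, a ring-finger gene of the same cluster, was at 2.83 to 3.28 CPM in AXL WT normoxia and 0.293 to 0.393 in AXL KO normoxia (-3.15 ± 0.29, edgeR adjusted p = 1.83e-06), and the hypoxia difference was -3.96 ± 0.29 (3.48e-07). The ubiquitin ligase gene Ube3a and the flippase gene Atp10a, read from the maternal copy in some tissues, were also lower in hypoxia (-1.02 ± 0.10 and -2.44 ± 0.31, edgeR adjusted p = 4.13e-06 and 3.41e-05) and in normoxia (-0.82 ± 0.10 and -1.81 ± 0.30, 1.9e-05 and 0.000259). The exception was Snhg14, the long non-coding RNA that hosts small nucleolar RNAs of the cluster and runs antisense to Ube3a. Snhg14 had 9.15, 7.72 and 5.94 CPM in normoxic AXL WT libraries, against 3.09, 3.23 and 3.36 in normoxic AXL KO libraries (-1.24 ± 0.24, edgeR adjusted p = 0.0009). In hypoxia the genotypes overlapped, at 16.8, 21.6 and 13.6 CPM in AXL WT and 14.7, 9.12 and 15.9 in AXL KO, and it was not called (-0.39 ± 0.24, edgeR adjusted p = 0.168). Ndn had no count, and Magel2 and Peg12, intronless genes at the end of the cluster, had 3 counts or fewer per group.

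At the Igf2r locus the antisense RNA was called lower in AXL KO, and the receptor was not called between genotypes. Igf2r, which clears IGF2 and sorts lysosomal enzymes, had 305, 298 and 279 CPM in AXL WT normoxia, 202, 304 and 197 in AXL WT hypoxia. In AXL KO it had 241, 237 and 281 CPM in normoxia and 286, 265 and 252 in hypoxia. It was not called in any comparison (normoxia -0.22 ± 0.15, edgeR adjusted p = 0.232, hypoxia 0.19 ± 0.15, 0.282). Without AXL WT hypoxia replicate 2 it was called higher in AXL KO hypoxia (0.42, 0.00247) and lower in AXL KO normoxia (-0.22, 0.0393), as it was in normoxia when libraries were scaled by size alone (-0.48, 0.00721). Airn, the paternal non-coding RNA that starts in an Igf2r intron and silences Igf2r in cis, had 2.87, 3.01 and 2.27 CPM in AXL WT normoxia and 0.768, 0.897 and 1.20 CPM in AXL KO normoxia (-1.51 ± 0.27, edgeR adjusted p = 0.000412). Hypoxic libraries had 2.25, 1.52 and 1.20 CPM in AXL WT and 0.703, 0.717 and 0.792 in AXL KO (-1.17 ± 0.28, 0.0031). The genotypes did not overlap at either oxygen level.

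The abundant members Gnas, Zrsr1, Impact, Blcap and Inpp5f differed by graded amounts. Impact, a translational regulator read from the paternal copy, had 15.9, 13.6 and 15.4 CPM in AXL WT normoxia, against 6.65, 6.16 and 8.89 in AXL WT hypoxia. In AXL KO it had 40.4, 39.2 and 39.3 CPM in normoxia and 52.0, 47.2 and 52.8 in hypoxia. The genotypes did not overlap, and AXL KO was higher in normoxia (1.41 ± 0.14, edgeR adjusted p = 3.18e-06) and in hypoxia (2.81 ± 0.14, 1.85e-08). Zrsr1, a splicing factor gene of retrotransposed origin inside a Commd1 intron and read from the paternal copy, had 14.6, 15.8 and 15.2 CPM in AXL WT normoxia and 35.9, 33.4 and 37.9 CPM in AXL KO normoxia (1.23 ± 0.11, edgeR adjusted p = 1.34e-06). In hypoxia it had 17.3 to 17.7 CPM in AXL WT and 28.0 to 34.6 in AXL KO (0.84 ± 0.11, 3.74e-05). Its host Commd1, a copper metabolism and NF-kB regulator, moved the other way at both oxygen levels (normoxia -0.51 ± 0.11, edgeR adjusted p = 0.0017, hypoxia -0.31 ± 0.11, 0.0285).

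Gnas, the stimulatory G protein alpha subunit locus with several imprinted transcripts that the counts do not separate, had 916 to 994 CPM in AXL WT normoxia and 1280 to 1460 in AXL KO normoxia (0.53 ± 0.08, edgeR adjusted p = 0.000194). At 1% oxygen Gnas had 1360 to 1550 CPM in AXL WT and 1770 to 1810 in AXL KO (0.30 ± 0.08, 0.00779). The hypoxia call was lost when libraries were scaled by size alone (edgeR adjusted p = 0.0922) and when the 6 hypoxia libraries were fitted alone (0.0915). Blcap, an apoptosis-related gene whose intron holds Nnat, had 39.3 to 42.3 CPM in AXL WT normoxia and 25.3 to 26.8 in AXL KO normoxia (-0.67 ± 0.11, edgeR adjusted p = 0.000245). In hypoxia it was at 23.3 to 29.2 CPM in AXL WT and 16.5 to 18.1 in AXL KO (-0.57 ± 0.11, 0.000849). Nnat, the paternally read neural gene within it, stayed at 0.0883 CPM or lower. Inpp5f, an inositol phosphatase gene with an imprinted variant in brain, had 35.1, 12.3 and 26.6 CPM in AXL WT hypoxia and 47.9, 42.6 and 47.2 in AXL KO hypoxia (0.89 ± 0.27, edgeR adjusted p = 0.0121). Fitted on the 6 hypoxia libraries alone it was not called (0.85, edgeR adjusted p = 0.0797). In normoxia it was not called in the fit of all 12 libraries (0.23 ± 0.27, edgeR adjusted p = 0.484). Fitted on the normoxia libraries alone it was called higher in AXL KO (0.22, edgeR adjusted p = 0.01). Its normoxia libraries were at 32.7 to 36.7 CPM in AXL KO and 29.4 to 30.3 in AXL WT.

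Mest, Peg10, Sgce, Zdbf2 and Nap1l5, all read from the paternal copy, were essentially silent, with at most 4 counts over any group of 3 libraries. The genes that overlap Mest or contain Nap1l5 were on. Copg2, a coat protein gene that runs antisense to Mest, was higher in AXL KO (hypoxia 0.86 ± 0.22, edgeR adjusted p = 0.00465, normoxia 0.57 ± 0.22, 0.0385). Herc3, a ubiquitin ligase gene that contains Nap1l5, was higher in AXL KO in normoxia (0.83 ± 0.30, edgeR adjusted p = 0.0309) and not called in hypoxia (0.63 ± 0.30, 0.0818). The pair of H13, a signal peptide peptidase gene, and Mcts2, the paternally read gene in its intron, also moved in opposite directions in normoxia: H13 was higher (1.01 ± 0.17, edgeR adjusted p = 0.000243) and Mcts2 lower (-1.21 ± 0.35, 0.00984). In hypoxia H13 was higher (1.18 ± 0.17, edgeR adjusted p = 7.88e-05) and Mcts2 was not called (-0.42 ± 0.32, 0.273). Asb4, a ubiquitin ligase adaptor of the Peg10 cluster read from the maternal copy, had 0.67, 0.893 and 0.367 CPM in AXL WT normoxia, 0.309, 0.0937 and 0.0831 in AXL WT hypoxia, and in AXL KO 0.286, 0.224 and 0.52 in normoxia and 0.412, 0.358 and 0.462 in hypoxia. It was not called between genotypes (hypoxia 1.33 ± 0.55, edgeR adjusted p = 0.0501, normoxia -0.90 ± 0.47, 0.121). Fitted on the normoxia libraries alone it was called lower in AXL KO (-0.9, edgeR adjusted p = 0.044).

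The genotype differences of the 19 tested members formed a range rather than 2 sizes. In hypoxia the absolute log2 difference was under 0.5 for 2 members, 0.5 to 1.5 for 9, 1.5 to 3.3 for 3 and above 3.3 for 5 (H19, Plagl1, Sfmbt2, Phlda2 and Rtl1). In normoxia the counts were 3, 6, 4 and 6, the last adding Ascl2. H19 and Ascl2 had no count in AXL WT normoxia, and their bounds of at least 4.89-fold and 5.21-fold lie below that class, so their place in it depends on the prior count of the fit. Of all genes tested, 11.3% in hypoxia and 11.2% in normoxia were above 3.3, and 35.6% and 37.8% were under 0.5. Among the members above 3.3, H19 and Ascl2 were higher in AXL KO, Plagl1, Sfmbt2, Phlda2 and Rtl1 were lower, and all but Phlda2 had at least 1 group with 4 counts or fewer.

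**Figure D4:**
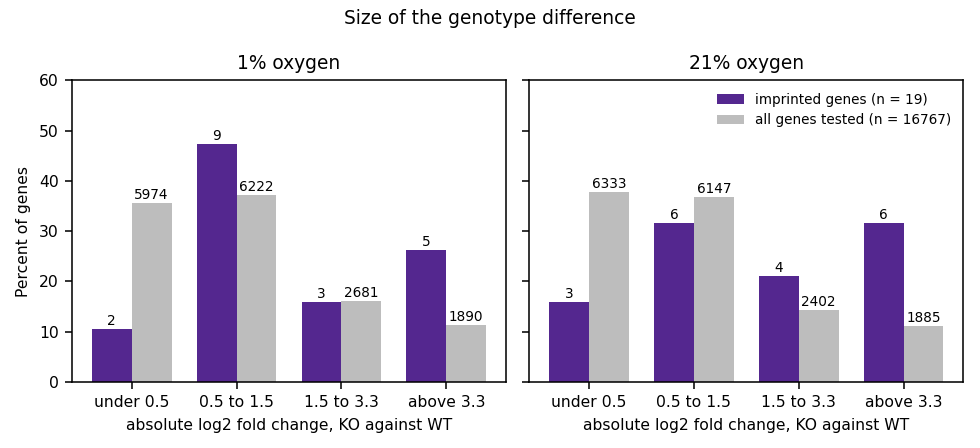
Percent of the 19 tested imprinted genes (purple) and of all 16767 genes tested (grey) in each class of absolute log2 difference between AXL KO and AXL WT, at 1% oxygen (left) and 21% oxygen (right). Numbers above the bars are genes. Members fill all 4 classes at both oxygen levels, with 5 and 6 of the 19 above 3.3, of which H19 and Ascl2 at 21% oxygen depend on the prior count.

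Oxygen moved the members in both directions. In AXL WT, 7 of 19 were higher in hypoxia, 6 were lower and 6 were not called, where 59.8% of all genes tested were called, 29.2% up and 30.7% down. For AXL KO, 8 were higher, 4 were lower and 7 were not called, where 58.0% of all genes were called (27.3% higher and 30.6% lower). The 2 sets of comparisons share no library with each other, but each shares libraries with the genotype comparisons. Called higher in hypoxia in both genotypes were H19, Snrpn, Gnas, Rtl1, Ascl2 and Cd81, and called lower in both were Grb10, Slc22a18 and Blcap. Among these the AXL WT calls of Cd81 (0.40 ± 0.14, edgeR adjusted p = 0.0242) and Slc22a18 and the AXL KO call of Gnas (0.37 ± 0.08, 0.00281) were lost under some alternatives: Cd81 under 6, 4 of them leaving out 1 library, Slc22a18 without AXL WT hypoxia replicates 2 and 3, and Gnas when libraries were scaled by size alone. Snrpn rose by 1.47 ± 0.14 in AXL WT and 1.09 ± 0.14 in AXL KO (edgeR adjusted p = 5.16e-06 and 5.74e-05). Slc22a18 went from 29 to 2 counts in AXL WT, a ratio of 11.8 with a 95% counting interval of 2.98 to 102, and from 142 to 5 counts in AXL KO, a ratio of 21.7 (edgeR adjusted p = 0.00333 and 8.17e-05). H19 went from 15 to 204 counts in AXL KO, a ratio of 17.8 (4.10 ± 0.47, edgeR adjusted p = 5.48e-05), while in AXL WT 4 counts against 0 gave at least 1.64-fold, and that call was lost without any 1 of the AXL WT normoxia libraries or without AXL WT hypoxia replicate 3. Ascl2 went from no count to 59 in AXL WT, at least 24.2-fold (edgeR adjusted p = 0.000144), and from 16 to 118 in AXL KO, a ratio of 9.64 (0.000537). Sfmbt2, on only in AXL WT, rose there by 0.76 ± 0.17 (edgeR adjusted p = 0.00356), and Kcnq1ot1 fell in AXL KO (-1.47 ± 0.40, 0.008). In AXL WT Kcnq1ot1 was not called (-0.24 ± 0.37, edgeR adjusted p = 0.597), and the difference between the 2 responses was not called either (-1.23 ± 0.54, 0.11). Both depended on the AXL WT hypoxia libraries: without replicates 2 and 3 Kcnq1ot1 fell in AXL WT as well (-1.53, edgeR adjusted p = 0.000108), and without replicate 1 the difference between responses was called (-1.6, 0.00112).

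The response to oxygen differed between genotypes for 4 of 19 members, 3 upward and 1 downward in AXL KO relative to AXL WT, where 28.8% of all genes tested were called in that test (13.5% upward and 15.3% downward). Impact fell in AXL WT (-1.05 ± 0.14, edgeR adjusted p = 5.41e-05) and rose slightly in AXL KO (0.35 ± 0.13, 0.0386), a difference of 1.4 ± 0.19 (0.000323) that was called under every alternative run. The rise in AXL KO was not called under 10 alternatives, 8 of them leaving out 1 library. Phlda2 was not called in AXL WT (-0.21 ± 0.33, 0.613) and rose in AXL KO (1.92 ± 0.50, edgeR adjusted p = 0.00599), a difference of 2.12 ± 0.60 (0.0202). It was not called without AXL KO normoxia replicate 2 (1.91, 0.0608) or AXL KO hypoxia replicate 1 (1.70, 0.0669). Asb4 fell in AXL WT (-1.97 ± 0.52, edgeR adjusted p = 0.00662) and was not called in AXL KO (0.26 ± 0.49, 0.679), a difference of 2.23 ± 0.72 (0.0372) that was lost when any 1 of 9 libraries was left out. Ascl2 gave -4.22 ± 1.38 (0.0452), a fitted size that involves a group with no counts, and was lost when any 1 of 8 libraries was left out.

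The wider sets of imprinted genes and of their regulators are given by their counts. Of 45 other imprinted genes 43 were found and 25 tested, of which 11 were higher in AXL KO, 8 lower and 6 not called in hypoxia, and 10, 8 and 7 in normoxia. That is 76.0% and 72.0% called, beside 63.0% and 59.7% of all genes tested. Their median log2 differences were 0.19 and 0.18. Pon3, an antioxidant lactonase gene of the Peg10 cluster, had 0.262 to 0.354 CPM in AXL WT normoxia and 71.0 to 88.2 in AXL KO normoxia (edgeR adjusted p = 2.59e-09), a ratio of summed counts of 256 there and 184 in hypoxia. Its cluster neighbour Ppp1r9a, a neuronal scaffold gene, had 2.95 to 3.77 CPM in AXL WT normoxia and no count in AXL KO normoxia, at least 195-fold lower (edgeR adjusted p = 7.39e-07). Tfpi2, a protease inhibitor gene nearby, went the other way in normoxia, with 1.57 to 1.86 CPM in AXL KO and none in AXL WT, at least 95.5-fold higher (edgeR adjusted p = 9.67e-07). Qpct, which encodes glutaminyl cyclase, was lower in AXL KO (hypoxia -6.27 ± 0.43, edgeR adjusted p = 2.55e-07, normoxia -4.06 ± 0.36, 1.7e-06). In hypoxia Qpct had 4.73 to 6.13 CPM in AXL WT and averaged 0.0684 in AXL KO. Ppp1r9a and Tfpi2 in normoxia and Qpct in hypoxia thus met the all-or-none limits used for the members. Of all genes that could show it, 3.85% were all-or-none in normoxia and 3.08% in hypoxia. These genes were named for their small adjusted p, so this is a description. The matrix proteoglycan gene Dcn, also 1 of the fibroblast markers above, was higher (2.09 ± 0.29, 6.79e-05 and 5.28 ± 0.32, 7.32e-08), and the actin nucleator gene Cobl was higher in normoxia (2.73 ± 0.20, edgeR adjusted p = 3.06e-07).

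Of 25 genes that set or keep imprints, 22 were tested. In hypoxia 12 were higher in AXL KO, 3 were lower and 7 were not called, with a median of 0.38, and in normoxia 6 were higher, 8 lower and 8 not called, with a median of -0.03. The shares called, 68.2% and 63.6%, lay near those of all genes tested (63.0% and 59.7%). Tet1, a dioxygenase that oxidises methylcytosine, had 0.123, 0.242 and 0.14 CPM in AXL WT normoxia and 5.81, 6.76 and 7.39 CPM in AXL KO normoxia (5.29 ± 0.51, edgeR adjusted p = 3e-06). In hypoxia it had 0.685, 0.0469 and 0.249 CPM in AXL WT and 30.3, 29.0 and 26.3 in AXL KO (6.43 ± 0.50, 6.76e-07). Its relative Tet3 was higher by 1.52 ± 0.10 in normoxia and 1.13 ± 0.10 in hypoxia (edgeR adjusted p = 1.07e-07 and 1.58e-06). The genes that copy methylation at replication stood on opposite sides at the 2 oxygen levels. Dnmt1, the maintenance methyltransferase, and Uhrf1, which recruits it, were lower in AXL KO in normoxia (-1.36 ± 0.16 and -2.37 ± 0.23, edgeR adjusted p = 1.52e-05 and 2.82e-06) and higher in hypoxia (0.75 ± 0.16 and 1.57 ± 0.22, 0.00134 and 8.23e-05). Hells, a chromatin remodeller needed for DNA methylation, was lower in normoxia (-2.63 ± 0.12, edgeR adjusted p = 4.62e-09) and not called in hypoxia (-0.24 ± 0.11, 0.0752). The de novo methyltransferase Dnmt3a was higher in normoxia (1.77 ± 0.18, edgeR adjusted p = 4.22e-06) and in hypoxia (0.79 ± 0.17, 0.00189). The histone methyltransferase Setdb1 and the zinc-finger protein Zfp445, which act where imprints are kept, were lower in hypoxia (-1.21 ± 0.16 and -0.81 ± 0.14, edgeR adjusted p = 5.06e-05 and 0.000337). In normoxia Setdb1 was lower too (-0.72 ± 0.16, edgeR adjusted p = 0.002) and Zfp445 was not called (0.03 ± 0.14, 0.845). Arid4a, a chromatin protein, was higher in hypoxia (0.72 ± 0.13, edgeR adjusted p = 0.000447) and in normoxia (0.64 ± 0.13, 0.000996). Whether DNA methylation differed at any imprinted gene was not measured.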

How the data were processed

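The tools named in the submitters' processing notes are STAR 2.5.1b, featureCounts 1.4.6, FastQC 0.11.5 and DESeq2 1.12.3. In contrast, the counter was featureCounts 1.6.0 per the file headers, with Ensembl release 93 (GRCm38) and strand setting 2, so antisense pairs were counted apart. The deposited values are counts of fragments per gene, without fragments that fall in 2 genes. RNA was extracted on RNeasy columns, per the labels' protocols.

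Symbols were found for 54079 of 54232 gene IDs. Genes were kept by edgeR's filterByExpr (16767 kept, 37465 removed) and tested with edgeR 4.0.16 in R 4.3.3: TMM factors, 1 mean per group over all 12 libraries (8 residual degrees of freedom), robust quasi-likelihood test and Benjamini-Hochberg adjustment over all genes kept. SE is the absolute log2 difference divided by the square root of F. The test was also run on simulated counts with the same spread in every group and few genes changed. That run cannot check the test where spread is uneven, as with AXL WT hypoxia, or where most genes are called. A ratio of summed counts uses TMM-adjusted library sizes. Against 0 counts it is a bound from 3 counts over the group, and against 1 to 3 counts it has an exact conditional 95% interval for counting error only. The depth of 45297267 to 58775422 counts makes 3 counts worth 0.0517 to 0.0728 CPM.

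All 33 members were to be named, with their hosts or antisense partners, the nearest tested genes of those all-or-none or called above 3.3, and up to 6 genes with the smallest adjusted p of 2 other lists in each genotype comparison. Dio3, Rian, Mirg, Snhg14, Itih2, the hairpins and microRNAs, and the normoxia values of Ube3a, Atp10a and Mkrn3 fall outside that rule and were added after values were seen. The normoxia value of Arid4a and the hypoxia values of Dnmt3a and Cobl were also added after values were seen. The members and lists were chosen with earlier results of these data known. Alternatives were RLE factors, library size alone, no filter, a filter of 5 CPM, DESeq2 1.42.0, limma-voom (limma 3.58.1), the replicate number as a block, only the compared libraries, and leaving out libraries. The per-gene estimates of those fits are compared in the closing section.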

Additional observations from a re-analysis of the deposited data

Results flagged for a closer look

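For 4 of the 19 tested members the response to 1% oxygen was called as different between AXL KO and AXL WT. The call came from the interaction term of the edgeR fit, which compares the 2 responses directly. The share of 21.1% lay below the 28.8% of all genes tested. Only the call of Impact held under every alternative, and those of Phlda2, Asb4 and Ascl2 were lost under some. For Impact the response in AXL KO minus that in AXL WT was 1.4 on the log2 scale (edgeR adjusted p = 0.000323). For Phlda2 it was 2.12 (edgeR adjusted p = 0.0202), with AXL WT hypoxia libraries at 15.3, 7.31 and 6.17 CPM. For Asb4 it was 2.23 (edgeR adjusted p = 0.0372) on 22 to 107 counts per group. For Ascl2 it was -4.22 (edgeR adjusted p = 0.0452), where AXL WT normoxia had no count, so the fitted size depends on the prior count.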

How the results depend on the processing

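Of 1938 values for a member and comparison under an alternative, 1817 kept their direction and side of the threshold, 72 were no longer called, 47 became called and 2 reversed. All 15 normoxia genotype calls held under every alternative that could give a value. Of the hypoxia genotype calls 12 of 15 did, the others being Grb10, Gnas and Inpp5f, and of the calls by oxygen 8 of 13 in AXL WT and 10 of 12 in AXL KO. Both reversals were in AXL WT by oxygen, where a member not called (Phlda2 -0.21, Inpp5f -0.27) was called the other way without AXL WT hypoxia replicates 2 and 3 (Phlda2 0.48, Inpp5f 0.25); the cause was not tested. Called members by genotype numbered 14 to 19 in hypoxia and 15 to 17 in normoxia when 1 library was left out. By oxygen they numbered 10 to 14 in AXL WT and 11 to 14 in AXL KO. In fits with 1 library left out, 19 or 20 members passed the filter, so these numbers can include a member outside the 19 tested as reported. The 19 called in hypoxia, without AXL WT hypoxia replicate 1, were out of 20 tested, and Igf2r was not called there. Over the same fits the share of all genes called by genotype ran from 55.4% to 71.8% in hypoxia and 50.7% to 68.4% in normoxia. By oxygen that share ran from 51.6% to 67.0% in AXL WT and 47.4% to 65.7% in AXL KO. For the difference between responses called members numbered from 1 (without AXL KO hypoxia replicate 1) to 10 (without AXL WT hypoxia replicate 1). As reported they numbered 4. The share of all genes called in that test was 21.2% and 48.1% in these fits and 28.8% as reported. The number of all-or-none members in hypoxia, 2 as reported and 2 to 3 with 1 library left out, was 4 with an upper limit of 0.5 CPM, 0 when the lower genotype had to have no count in any library and 1 with a lower limit of 5 CPM. In normoxia it was 1 with any 1 library left out and 2 with an upper limit of 0.5 CPM, by the construction of those limits. The shares of all genes under these other limits are not given here, so the member numbers are a description. Fitted values for H19, Rtl1, Ascl2, Plagl1, Sfmbt2 and Slc22a18, which have a group with few or no counts, moved most, for example Plagl1 in normoxia from -4.38 to -7.37 without AXL KO normoxia replicate 2, which held all 3 of its counts there. For Asb4, Slc22a18 and Grb10 in AXL WT by oxygen, leaving out AXL WT hypoxia replicate 1 moved -1.97, -3.36 and -2.20 to -2.83, -6.16 and -2.95. That omission also brought Asb4, Ascl2 and Slc22a18 to a call between genotypes in hypoxia (2.2, 1.66 and 4.05). Without AXL WT hypoxia replicate 3 H19 in hypoxia moved from 5.61 to 6.81 between genotypes. Scaling by library size alone moved the median of all genes from -0.03 to -0.285 in the normoxia genotype comparison and from -0.041 to -0.208 in hypoxia, and the share of calls that were higher from 49.7% to 35.8% and from 47.5% to 39.2%. By oxygen that share went from 48.8% to 33.2% in AXL WT and from 47.1% to 36.0% in AXL KO. It turned no called member. Same-numbered libraries of different groups did not deviate together: correlations of 18 pairs ran from -0.065 to 0.142 and 2 were over 0.1. With the replicate block the called members stayed at 15, 15, 13 and 12, and 3 differed in their response, Asb4 being lost (adjusted p = 0.0572). Depth limits the genes near 3 counts, worth 0.0517 to 0.0728 CPM: the call of H19 in AXL WT by oxygen rests on 4 counts against 0.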
